A study of Mus musculus with 12 samples.

Results

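The Klhl and Kbtbd genes encode adaptor proteins that pair a BTB domain with Kelch repeats. RNA-seq libraries of the tibialis anterior, a hindlimb muscle, were compared between C57Bl/6 (WT, 6 libraries) and the mdx/mTR strain (6 libraries). All donors were male and 4 months of age. In mdx/mTR the gene for dystrophin (Dmd) and the gene for the RNA component of telomerase are both mutated, and the WT group carries neither label, so effects of the one locus, of the other and of strain background cannot be told apart. The labels do not give the telomerase generation. Members were all rows of the deposited count table whose symbol is Klhl or Kbtbd followed by a number, which gave 46 of 24421 rows, 37 Klhl and 9 Kbtbd. Of the 46, 41 had enough counts to be tested.

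In these proteins the BTB domain binds the scaffold CUL3, the Kelch repeats hold a substrate, and the assembled ligase attaches ubiquitin to that substrate. In skeletal muscle several members act beyond this role: KLHL40 and KLHL41 stabilise nebulin and other thin filament proteins, and mutations in KLHL40, KLHL41 and KBTBD13 cause nemaline myopathy in people. Other members act in cell division, in vesicle coats, in kidney salt handling, or in testis and brain.

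The sequence before the transcription start is shown for 4 members whose values are compared further on. Klhl40 and Klhl41 both stabilise nebulin and differed in their response, Klhl33 is a muscle-associated member with a MEF2 match next to an E-box, and Klhl29 fell and holds neither motif. Each is the 250 bases upstream of the RefSeq start, 5′ to 3′ on the gene's strand (build GRCm38.p6). Capitals mark matches to the E-box CANNTG, the motif bound by MyoD-type factors, and to the MEF2 motif. The windows are chr9:121777357-121777606 (plus strand) for Klhl40, chr2:69669870-69670119 (plus strand) for Klhl41, chr14:50897484-50897733 (minus strand) for Klhl33 and chr12:5375683-5375932 (minus strand) for Klhl29.
Klhl40: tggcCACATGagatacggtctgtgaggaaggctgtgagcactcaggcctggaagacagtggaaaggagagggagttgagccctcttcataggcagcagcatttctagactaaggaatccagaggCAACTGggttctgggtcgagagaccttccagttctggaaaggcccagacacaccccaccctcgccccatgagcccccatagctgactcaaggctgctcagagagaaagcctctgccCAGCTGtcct
Klhl41: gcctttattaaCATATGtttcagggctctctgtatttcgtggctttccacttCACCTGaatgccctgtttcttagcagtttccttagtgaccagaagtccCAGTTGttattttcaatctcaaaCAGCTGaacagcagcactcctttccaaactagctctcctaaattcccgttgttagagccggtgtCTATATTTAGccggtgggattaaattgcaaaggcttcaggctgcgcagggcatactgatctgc
Klhl33: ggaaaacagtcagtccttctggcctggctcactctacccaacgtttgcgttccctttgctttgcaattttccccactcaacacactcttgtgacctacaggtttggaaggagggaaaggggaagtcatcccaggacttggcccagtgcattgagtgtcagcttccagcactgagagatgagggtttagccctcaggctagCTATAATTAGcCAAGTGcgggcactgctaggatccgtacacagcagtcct
Klhl29: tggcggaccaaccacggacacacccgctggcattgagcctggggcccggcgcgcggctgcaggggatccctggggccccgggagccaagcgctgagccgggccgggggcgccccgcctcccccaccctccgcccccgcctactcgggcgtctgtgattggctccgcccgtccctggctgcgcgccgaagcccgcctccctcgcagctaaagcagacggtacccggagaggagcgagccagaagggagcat
Klhl40 held 3 E-boxes and Klhl41 held 4, together with 1 MEF2 match that starts 63 bases before the start. In Klhl33 the MEF2 match starts 50 bases and the only E-box 39 bases before the start. RefSeq lists a second start for Klhl33, whose window (chr14:50895353-50895602) held neither motif. Klhl29 held neither motif, and none of the 4 held a CArG box, the site of serum response factor. Both strands were searched, and no 2 of the marked matches overlap. Across 32851 upstream windows of the same length in the RefSeq table, 66.2% held an E-box, 2.92% a MEF2 match and 1.47% a CArG box. Windows were listed for 38 of the 46 members, 50 windows in all, of which 28 held an E-box, 3 a MEF2 match and 0 a CArG box. The third MEF2 match lay in Kbtbd12. Among called members not shown, E-boxes were found for lower ones (Klhl34, Klhl21, Kbtbd13, Klhl22, Klhl23 and Kbtbd4) and for a higher one (Klhl13). Klhl23, Kbtbd4 and Klhl13 each also had a window without an E-box. No window was listed for Kbtbd11 and Klhl42, both higher. Neither motif was found for higher ones (Klhl11 and Klhl36) and for a lower one (Kbtbd8). Whether a motif goes with a change was not tested. These are matches of letters and not shown to be sites of binding.

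The smallest and largest WT libraries held 36903560 and 40981012 counts, and those of mdx/mTR 35136327 and 60330410. Levels are given as CPM, a count relative to the TMM-scaled library total, a scaling that sets the bulk of genes equal between libraries. Dmd checks the labels: it was at 46.8 CPM in mdx/mTR against 237 CPM in WT, without overlap (-2.34 ± 0.09 SE on the log2 scale, adjusted p 8.3e-10 in edgeR). Muscle fibre markers were high in both groups: 8 summed to 182365 to 216351 CPM across WT libraries and to 143350 to 197475 CPM across mdx/mTR libraries, and 1 of the 8 was lower. Of 8 macrophage markers 8 were higher in mdx/mTR, and their sum was 80.2 to 137 CPM across WT libraries and 235 to 671 CPM across those of mdx/mTR. Of 8 fibroblast markers 7 were higher (summed, 1007 to 1805 and 2492 to 4907 CPM), and of 7 satellite cell and myoblast markers 5 were higher and 1 lower (54.4 to 70.2 and 68.03 to 131 CPM). Of 8 endothelial markers 5 were lower (566 to 733 and 456 to 594 CPM), as were 5 of 6 Schwann cell markers (51.1 to 63.8 and 26.5 to 40.9 CPM). In bulk muscle, a change in the number of cells of a type and a change in RNA per cell cannot be told apart. Nothing in the labels says that each library is a separate animal, so p-values measure only the spread between these libraries, which may be technical.

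With TMM scaling, most of the family did not pass the test between mdx/mTR and WT muscle. Of 41 members tested, 7 were higher and 8 lower at an adjusted p below 0.05 in edgeR's quasi-likelihood test, and 26 did not pass. The 15 that passed are 36.6% of the members tested, where 48.3% of all 13937 genes passed, 25.0% higher and 23.4% lower. The median log2 fold change of the 41 members tested was 0.01, as it was over all genes (0.01), and their range was -1.04 to 1.13. The median size of the change, regardless of sign, was 0.15 among the members and 0.23 over all genes. At least a 2-fold rise was found for 1 member, Kbtbd11, against 7.24% of all genes. The 2 groups did not overlap for 6 members, 4 higher and 2 lower in mdx/mTR, where 12.6% of all genes did not overlap in each direction.

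**Figure D1:**
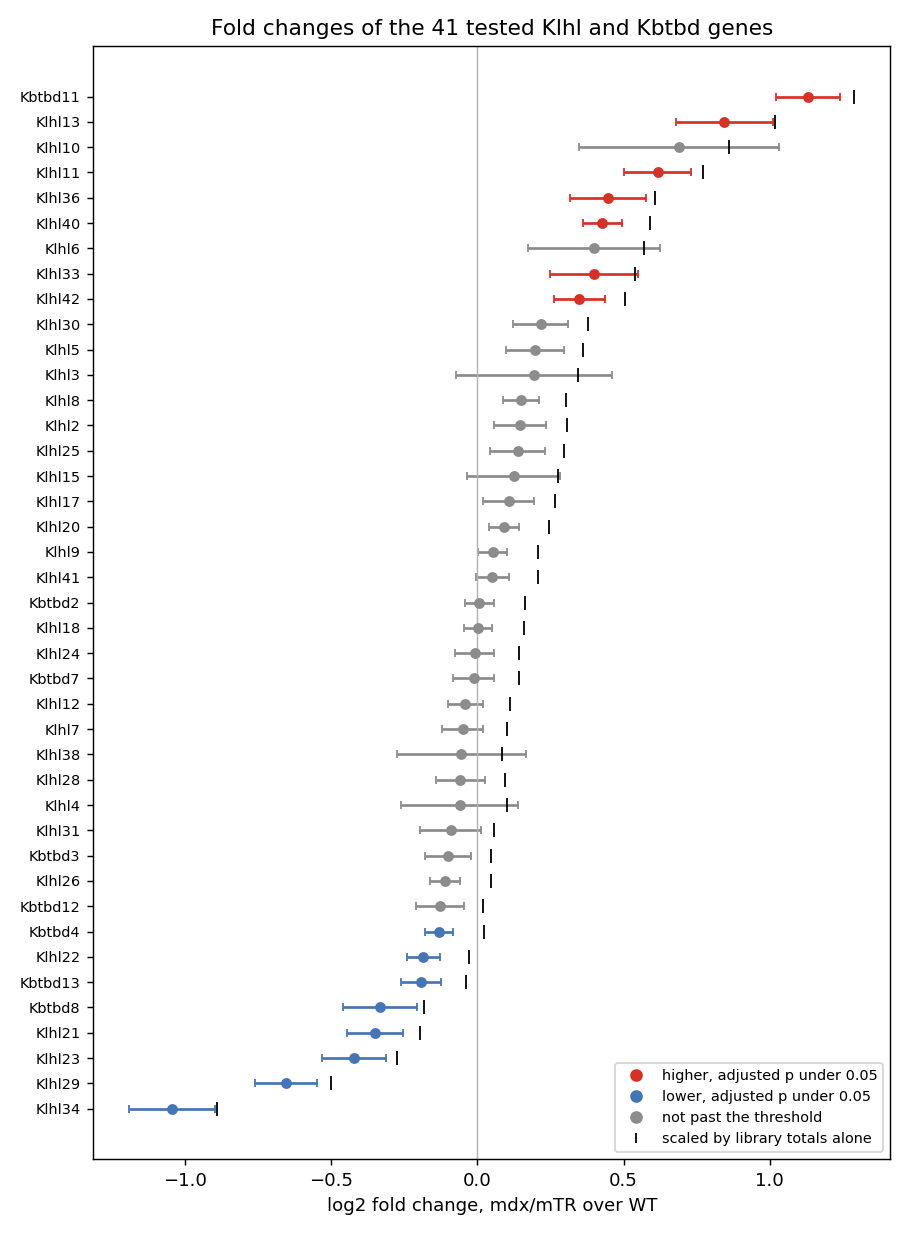
Change from WT to mdx/mTR on the log2 scale (x axis) for each of the 41 tested members (y axis), with bars of ± 1 SE. Red and blue points passed the threshold upward and downward in edgeR, grey points did not, and black ticks give the value when libraries are scaled by their totals alone. Kbtbd11 is at the top at 1.13 and Klhl34 at the bottom at -1.04, and the black ticks lie to the right of the points.

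The share of members that passed, and the balance of rises and falls, depended on the scaling. With library totals in place of TMM, 20 members were higher and 3 lower, where the median over all genes moved by 0.16 on the log2 scale. Under that scaling 7156 of the 13937 genes passed, 5596 higher and 1560 lower, and most of the 41 members did too. Of all calls 78.2% were higher, in place of 51.6%. With upper quartile scaling, 10 members were higher and 4 lower, where 3955 of the 13937 genes were higher and 2699 lower. At the same threshold, 6 of the rises and 3 of the falls passed under each other scaling, filter and tool and without any 1 library: the rises of Kbtbd11, Klhl13, Klhl11, Klhl36, Klhl40 and Klhl42, and the falls of Klhl34, Klhl29 and Klhl23. The number of falls was 5 in place of 8 without mdx/mTR replicate 5, without mdx/mTR replicate 6 or without WT replicate 1. In the authors' deposited table the same 7 members were higher and the same 8 lower, and its largest values were 1.09 for Kbtbd11 and -1.01 for Klhl34.

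As a share of all counts, the 46 genes together took 0.240% to 0.255% of a WT library and 0.263% to 0.287% of an mdx/mTR library, without overlap. On the TMM scale the family summed to 2502 to 2748 CPM in WT and 2469 to 2858 CPM in mdx/mTR, which overlap. The sum was uneven. Klhl41 alone made up 24.2% to 28.5% of the family's counts, Klhl31 9.97% to 14.6%, Klhl21 6.48% to 11.9% and Klhl24 8.59% to 10.7%. Levels were also divided by kilobases of annotated exon (GENCODE M21), for a rough comparison between genes. That length pools the exons of all annotated transcripts of a gene, whether or not they are expressed in this muscle. On that scale Klhl41 was highest at 267 CPM per kilobase in WT, followed by Klhl21 (68.5), Klhl40 (62.4), Klhl30 (54.9) and Klhl31 (52.5). In mdx/mTR the first place was still Klhl41 (277), and the next 4 were Klhl40 (84.0), Klhl30 (63.8), Klhl21 (53.8) and Klhl31 (49.3). Exon lengths were found for 45 of the 46 members, all but Klhl17.

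A group of 9 members is known for their expression in striated muscle, and their share of the family's counts was 59.1% to 62.9% across WT libraries and 62.7% to 65.1% across those of mdx/mTR. Of the 9, 2 were higher (Klhl40 and Klhl33), 2 lower (Klhl34 and Kbtbd13), and 5 did not pass (Klhl41, Klhl31, Klhl30, Klhl38 and Kbtbd12). The share that passed, 44.4%, is near that of all genes (48.3%). With library totals 4 were higher and 1 lower (5596 and 1560 of all 13937 genes). Rises and falls stood side by side in this set.

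Klhl40, whose protein protects nebulin and leiomodin 3 in the thin filament, rose by 34.5%. Its WT libraries ran from 142 to 176 CPM with a median of 154, and its mdx/mTR libraries from 187 to 241 CPM with a median of 205. All 6 mdx/mTR libraries lay above all 6 WT libraries, and mdx/mTR replicate 5 was the highest. The log2 fold change was 0.43 ± 0.07 (SE, n = 6 per group, edgeR adjusted p 1.6e-04). Of its transcript's 50-base stretches, 17.5% also occur in the opposite-strand gene Gm47108, and since strand handling is not given in the sources used here, reads from that stretch cannot be told apart.

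Klhl41, which like Klhl40 acts on nebulin and is the most abundant member, did not pass. It ran from 609 to 713 CPM in WT (median 679) and from 649 to 742 CPM in mdx/mTR (median 703), with wide overlap. Its log2 fold change was 0.05 ± 0.06 (edgeR adjusted p 0.471), or 0.21 with library totals (adjusted p 0.0063). The difference between the pair can be read within each library, where the scaling cancels: there were 0.224 to 0.246 Klhl40 counts for each Klhl41 count in WT, and 0.272 to 0.356 in mdx/mTR, without overlap. The ratio was 1.30 times higher in mdx/mTR (exact permutation test, two-sided, p 0.0022, the smallest this design allows, and adjusted p 0.0043 over the 4 pairs compared). All 4 pairs were chosen with earlier results of these data known. The p-values of their ratios are therefore not independent evidence of a difference, and the adjustment does not cover that choice.

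The genes of proteins bound by these adaptors were lower or did not pass. Neb, the nebulin gene, fell from 12811 ± 371 to 10129 ± 964 CPM (SD, n = 6 each; log2 fold change -0.34 ± 0.08, edgeR adjusted p 0.0036), without overlap, and its value was -0.19 with library totals (adjusted p 0.0065). Nrap, a sarcomere assembly protein and substrate of KLHL41, fell from 2380 ± 202 to 1820 ± 268 CPM (-0.39 ± 0.10, edgeR adjusted p 0.0049), although with library totals its value was -0.23 (adjusted p 0.0526). Lmod3, the leiomodin gene, was at 163 ± 17.2 and 174 ± 26.0 CPM (0.09 ± 0.09, edgeR adjusted p 0.432). Its value was 0.25 with library totals, which passed (adjusted p 0.0472), and 0.0095 without mdx/mTR replicate 2.

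**Figure D2:**
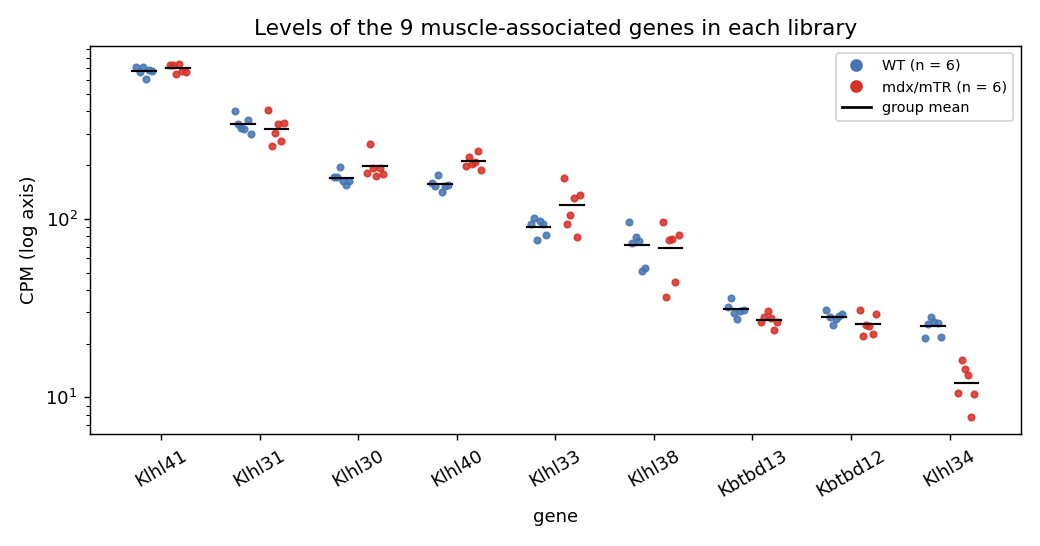
Level of the 9 muscle-associated members in CPM (log axis) in each of 12 libraries, WT in blue and mdx/mTR in red, with black lines at the group means. The Klhl40 and Klhl34 groups are apart, in opposite directions, while the points of Klhl41, Klhl31 and Klhl38 overlap.

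Klhl34 had the largest fall of the family, to a level 51.5% below WT. It ran from 21.6 to 28.2 CPM in WT (median 25.9) and from 7.80 to 16.2 CPM in mdx/mTR (median 11.9). Every mdx/mTR library was below every WT library, with mdx/mTR replicate 5 the lowest. The log2 fold change was -1.04 ± 0.15 (edgeR adjusted p 7.7e-05), and it stayed between -1.15 and -0.89 over the alternatives run. A fall of at least 2-fold was called for 1.94% of all genes. Compared with Klhl31 in the same library, Klhl34 had a median of 0.0744 counts per Klhl31 count in WT and 0.0349 in mdx/mTR, although the lowest WT library (0.0538) lay below the highest mdx/mTR library (0.0635). The ratio in mdx/mTR was 0.509 of that in WT (exact permutation p 0.0043, adjusted p 0.0043 over the 4 pairs). This pair, too, was chosen with earlier results known.

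Klhl33 was higher on average but scattered among the mdx/mTR libraries. It ran from 76.1 to 102 CPM in WT (median 93.7) and from 79.4 to 170 CPM in mdx/mTR (median 119). mdx/mTR replicate 1 was the highest, and replicates 2 and 5 lay inside the WT range. Its log2 fold change of 0.40 ± 0.15 passed narrowly (edgeR adjusted p 0.0420) and did not pass in limma-voom (0.36, adjusted p 0.0633), with a replicate block (0.36, adjusted p 0.0574) or in 8 of the 12 fits that leave out 1 library (0.27 to 0.49 over the 12). Those 8 left out mdx/mTR replicate 1, 4 or 6, or any WT replicate but 2.

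Kbtbd13, a nemaline myopathy gene whose protein acts on the thin filament, was 12.5% lower. It ran from 27.4 to 35.9 CPM in WT (median 30.8) and from 24.0 to 30.4 CPM in mdx/mTR (median 27.3), with overlap. The log2 fold change was -0.19 ± 0.07 (edgeR adjusted p 0.0316). The call was lost with library totals (-0.04, adjusted p 0.674), with upper quartile scaling (-0.15, adjusted p 0.0869) and without mdx/mTR replicate 1, 5 or 6 or WT replicate 1 or 2 (-0.23 to -0.15 over the 12 libraries left out in turn).

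The remaining muscle members overlapped between the groups. Klhl31, whose protein targets filamin C and whose loss causes a myopathy in mice, ran from 299.8 to 402 CPM in WT (median 333) and from 256 to 407 CPM in mdx/mTR (median 320.4). Its log2 fold change was -0.09 ± 0.10 (edgeR adjusted p 0.501), and Flnc, the filamin C gene, also did not pass (-0.14 ± 0.14, adjusted p 0.424); with library totals both signs were positive. Klhl30 ran from 155 to 194 CPM (median 167) and from 173 to 264 CPM (median 187), with mdx/mTR replicate 2 far above the rest. For Klhl30 the log2 fold change was 0.22 ± 0.09 (edgeR adjusted p 0.0727), and 0.12 without that library; it passed with library totals (0.38, adjusted p 0.0097), with upper quartile scaling (0.26, adjusted p 0.0377) and without mdx/mTR replicate 4 or WT replicate 3 (at most 0.26).

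Klhl38 had the widest scatter of the muscle set, from 50.8 to 95.5 CPM in WT (median 74.3) and from 36.6 to 96.1 CPM in mdx/mTR (median 76.7). Its log2 fold change was -0.05 ± 0.22 (edgeR adjusted p 0.855), and 62.6% of its transcript's 50-base stretches are shared with the opposite-strand gene Gm15943. Kbtbd12 ran from 25.3 to 30.9 CPM in WT (median 28.4) and from 22.0 to 30.9 CPM in mdx/mTR (median 25.3), at -0.13 ± 0.08 (edgeR adjusted p 0.212). With library totals the signs of Klhl38 and Kbtbd12 were positive.

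The group set for cell division holds 7 members, among them Klhl22 and Kbtbd8, whose targets named below lie outside division. Of the 7, 2 were higher and 3 lower, where 25.0% of all genes were higher and 23.4% lower. With library totals 4 of the 7 were higher and 0 lower (5596 and 1560 of all 13937 genes). KLHL9, KLHL13 and KLHL21 bring CUL3 to Aurora B, the kinase of chromosome segregation. Klhl13 was the second largest rise of the family, 79.6% higher, at 4.57 to 6.98 CPM in WT (median 5.23) and 7.38 to 14.8 CPM in mdx/mTR (median 8.53). The groups did not overlap, and mdx/mTR replicates 5 and 2 were the highest. For Klhl13 the log2 fold change was 0.85 ± 0.16 (edgeR adjusted p 9.4e-04).

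Klhl21 moved the other way, 21.5% lower, at 249 to 316 CPM in WT (median 265) and 166 to 264 CPM in mdx/mTR (median 213). Only mdx/mTR replicate 4 reached into the WT range. Its log2 fold change was -0.35 ± 0.10 (edgeR adjusted p 0.0088), but -0.19 with library totals (adjusted p 0.0945), and 19.9% of its 50-base stretches occur in transcripts of other genes, among them the opposite-strand gene Gm9768. Klhl9 did not pass, at 79.2 ± 4.51 and 82.1 ± 4.14 CPM (0.05 ± 0.05, edgeR adjusted p 0.400), or 0.21 with library totals (adjusted p 0.0069). Of the 50-base stretches of Klhl9, 14.8% also occur in the opposite-strand gene Gm26566.

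Ratios within a library compared these 3 genes without regard to scaling, and for both ratios the groups overlapped. There were a median of 14.5 Klhl9 counts for each Klhl13 count in WT and 9.27 in mdx/mTR, with the WT range (10.6 to 18.2) and the mdx/mTR range (5.47 to 11.6) overlapping. There were a median of 3.37 Klhl21 counts for each Klhl9 count in WT and 2.64 in mdx/mTR (3.14 to 3.78 and 1.97 to 3.18). In mdx/mTR the first ratio was 0.590 and the second 0.752 of that in WT (exact permutation p 0.0043 for each, adjusted p 0.0043 over the 4 pairs). Both pairs were chosen with earlier results known. Aurkb, the gene of Aurora B, had too few counts to be tested (0.200 ± 0.113 and 0.667 ± 0.534 CPM).

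**Figure D3:**
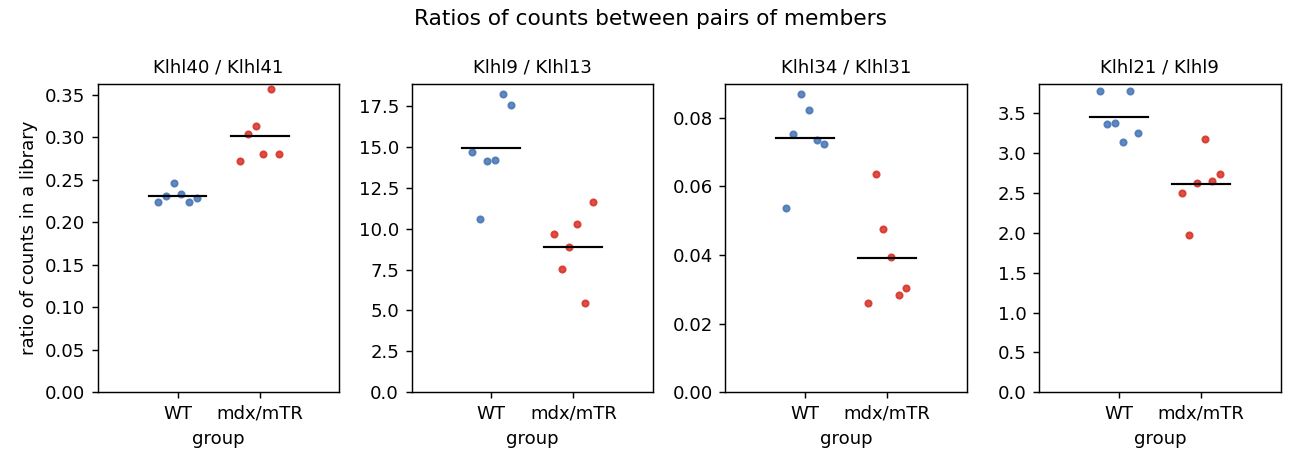
Ratio of the counts of 2 members in each library (y axis from 0; a pseudocount of 0.5 was added to each count), WT in blue and mdx/mTR in red, with black lines at the group means. The Klhl40 to Klhl41 ratio is higher in all 6 mdx/mTR libraries, and the other 3 ratios are lower on average with small overlaps.

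Klhl42, whose protein targets the microtubule-severing enzyme katanin, was 27.3% higher. It ran from 4.14 to 5.16 CPM in WT (median 4.35) and from 4.91 to 6.23 CPM in mdx/mTR (median 5.72), with WT replicate 2 alone inside the mdx/mTR range. For Klhl42 the log2 fold change was 0.35 ± 0.09 (edgeR adjusted p 0.0046). Klhl22, which acts on the nutrient sensor DEPDC5, was lower at -0.18 ± 0.06 (edgeR adjusted p 0.0173), and Kbtbd8, which acts on the ribosome biogenesis factors NOLC1 and TCOF1, at -0.33 ± 0.13 (adjusted p 0.0425). With library totals neither Klhl22 (-0.03, adjusted p 0.725) nor Kbtbd8 (-0.18, adjusted p 0.223) passed, nor with upper quartile scaling (-0.14, adjusted p 0.0571, and -0.29, adjusted p 0.0709). The call of Kbtbd8 was also lost with a replicate block (adjusted p 0.0805), with no low count filter (adjusted p 0.0542) and without mdx/mTR replicate 2, 5 or 6 or WT replicate 1, 2, 5 or 6 (-0.39 to -0.27 over all 12).

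Of 8 members linked to testis, brain or other tissues, 5 were tested, and 2 were higher (25.0% of all genes). Kbtbd11 was the largest rise of the family, 119% higher, at 1.53 to 2.16 CPM in WT (median 1.90) and 3.49 to 4.54 CPM in mdx/mTR (median 4.17). These levels stand for 55 to 79 counts per WT library and 162 to 267 per mdx/mTR library, and the lowest mdx/mTR library was well above the highest WT library. The log2 fold change was 1.13 ± 0.11 (edgeR adjusted p 4.4e-06) and 1.08 to 1.29 over the alternatives run. Of its 50-base stretches 24.9% also occur in the opposite-strand gene Gm37844.

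Klhl11, an antigen of testis and brain, was 53.3% higher. It ran from 1.96 to 3.04 CPM in WT (median 2.45) and from 3.31 to 4.37 CPM in mdx/mTR (median 3.73), without overlap (log2 fold change 0.62 ± 0.11, edgeR adjusted p 6.3e-04). Klhl6, which acts in B cells, did not pass, at 1.45 to 3.15 CPM in WT and 1.77 to 3.84 CPM in mdx/mTR. B cell markers were near 0 in both groups (6 summed to 0.416 to 2.54 and 1.06 to 4.18 CPM, none at 0 in all libraries). Of the 3 with enough counts to be tested, 1 was higher (log2 fold change 2.06) and 2 did not pass. The low members Kbtbd11, Klhl11 and Klhl13 rose in the same libraries in which macrophage and fibroblast markers were higher, and the part of those cells in their rise was not tested.

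For 8 members no group by function was set, of which 1 was higher and 2 lower, beside 25.0% and 23.4% of all genes. Klhl29 fell by a wide margin, 36.4% lower, at 5.33 to 8.01 CPM in WT (median 5.85) and 3.51 to 4.24 CPM in mdx/mTR (median 3.96), without overlap. Its mdx/mTR libraries were close together, and WT replicate 2 was the highest. For Klhl29 the log2 fold change was -0.65 ± 0.11 (edgeR adjusted p 2.4e-04).

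Klhl23 was 25.4% lower, at 22.9 to 32.4 CPM in WT (median 26.2) and 16.3 to 25.7 CPM in mdx/mTR (median 19.8). In all, 5 of the 6 mdx/mTR libraries were below every WT library, and replicate 1 was inside the WT range (log2 fold change -0.42 ± 0.11, edgeR adjusted p 0.0064, or -0.27 with library totals, adjusted p 0.0318). Klhl36 was 36.2% higher, at 1.42 to 1.99 CPM in WT (median 1.72) and 1.76 to 2.76 CPM in mdx/mTR (median 2.44). Here 5 of the 6 mdx/mTR libraries were above every WT library (0.45 ± 0.13, edgeR adjusted p 0.0117).

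**Figure D4:**
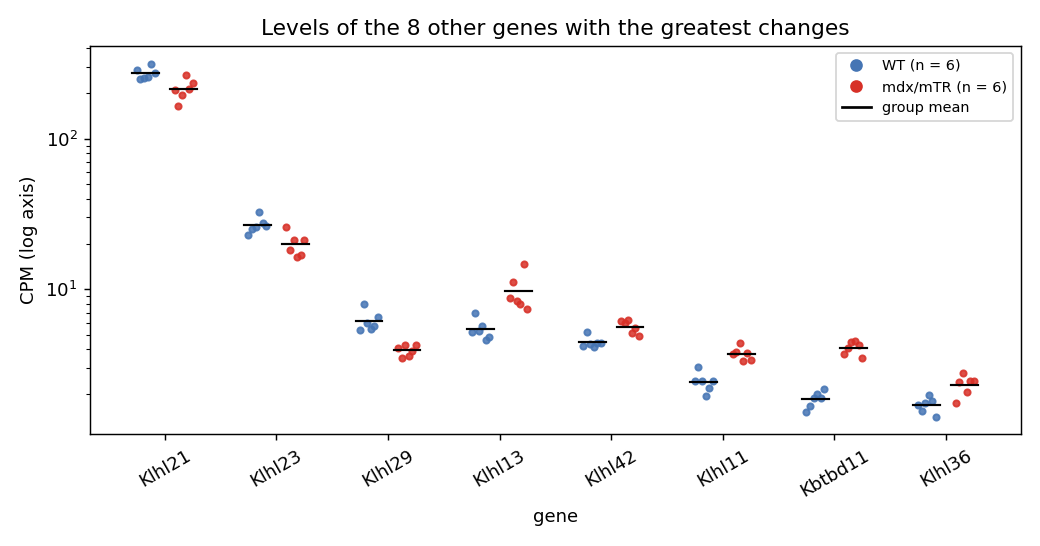
Level in CPM (log axis) in each library of the 8 members outside the muscle set with the greatest changes past the threshold and a mean of at least 1 CPM in either group, WT in blue and mdx/mTR in red, with black lines at the group means. Klhl29, Klhl13, Klhl11 and Kbtbd11 do not overlap between the groups, while Klhl21, Klhl23, Klhl42 and Klhl36 do.

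Of 12 adaptors of signalling and transport 11 were tested, 1 was lower (9.09% called, where 48.3% of all genes were) and 10 did not pass, among them Klhl12 of the vesicle coat, Klhl2 and Klhl3 of WNK kinase turnover and Kbtbd2 of insulin signalling. The 11 log2 fold changes lay between -0.13 and 0.19. That count depended on the scaling: with library totals 6 of the 11 were higher and 0 lower (5596 and 1560 of all 13937 genes). The 6 were Klhl12 (0.11, adjusted p 0.0441, its sign turned), Klhl2 (0.31), Kbtbd2 (0.16), Klhl20 (0.25), Klhl25 (0.30) and Klhl24. The lower one was Kbtbd4, an adaptor for the CoREST chromatin complex, at -0.13 ± 0.05 (edgeR adjusted p 0.0371), but its sign was positive with library totals (0.02). The call was also lost with upper quartile scaling (adjusted p 0.130), a replicate block (adjusted p 0.0743) and no low count filter (adjusted p 0.0614), and without mdx/mTR replicate 2, 3, 4, 5 or 6 or WT replicate 1, 5 or 6 (-0.15 to -0.11 over all 12). Of its 50-base stretches 64.2% are shared with the neighbouring genes Ptpmt1 and Ndufs3. Klhl24, which acts on intermediate filaments and is the most abundant of this group, stood at 252 ± 14.8 and 251 ± 24.9 CPM (-0.01 ± 0.07, edgeR adjusted p 0.923), or 0.14 with library totals (adjusted p 0.0251).

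The 5 members left were too low to be tested. Klhl1 had 0 counts in all 12 libraries, and Klhl14, a B cell and brain gene, had at most 2 in any. Kbtbd6 had 0 to 13, Klhl32 0 to 9 and Klhl35 0 to 10 counts per library. A count of 0 allows up to 3 counts, or 0.0460 to 0.0837 CPM by library, from counting error alone. Kbtbd6 shares 24.7% of its 50-base stretches with Kbtbd7, so its few counts are uncertain, while the WT and mdx/mTR levels of Kbtbd7 were 11.8 ± 1.01 and 11.7 ± 0.781 CPM. Of the stretches of Kbtbd7, 16.2% are in turn shared with Kbtbd6.

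The median coefficient of variation over the 41 members was 9.09% in WT and 10.1% in mdx/mTR, against 9.70% and 11.7% over all tested genes. The coefficient was greater in mdx/mTR for 27 of 41 members and for 8735 of all 13937 genes tested. No single library held most of the extremes. WT replicate 2 was the highest WT library for 13 members, mdx/mTR replicate 1 the highest mdx/mTR library for 11, and mdx/mTR replicate 5 the lowest mdx/mTR library for 10.

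The ligase core with which these adaptors work was described from 26 genes of CUL3, its neddylation enzymes and the COP9 signalosome. Of these, 3 were higher and 10 lower (25.0% and 23.4% of all genes), with a median log2 fold change of -0.10. With library totals 10 were higher and 6 lower (5596 and 1560 of all 13937 genes). Cul3 itself fell, from 324 to 384 CPM in WT (median 369) to 225 to 282 CPM in mdx/mTR (median 273). The groups did not overlap, and the log2 fold change was -0.48 ± 0.07 (edgeR adjusted p 9.7e-05). The falls with the smallest p-values were those of Cops3, a signalosome subunit (-0.38 ± 0.05, adjusted p 4.3e-05), Dcun1d2, a neddylation cofactor (-0.50, adjusted p 6.6e-05), and Ube2d3, a ubiquitin-conjugating enzyme (-0.34, adjusted p 7.9e-05). Cand1, which exchanges the adaptors of cullin ligases, was higher (0.39 ± 0.05, adjusted p 6.2e-05), as were Uba3 (0.18, adjusted p 0.0034) and Nedd8 (0.17, adjusted p 0.0101). With library totals the values of Cops3 (-0.23), Ube2d3 (-0.19), Uba3 (0.33) and Nedd8 (0.32) moved by over 1.5 times and still passed. Cul3 was chosen by its role, after its values were seen.

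Of 28 other BTB adaptors of CUL3, 4 were higher and 12 lower (25.0% and 23.4% of all genes), with a median of -0.16. With library totals 9 were higher and 5 lower (5596 and 1560 of all 13937 genes). The falls with the smallest p-values were Kctd9 (-0.43 ± 0.05, edgeR adjusted p 1.0e-05), Tnfaip1 (-0.27, adjusted p 7.2e-05) and Rhobtb1 (-0.78 ± 0.11, adjusted p 8.3e-05). With library totals Tnfaip1 did not pass (-0.11, adjusted p 0.0593). Enc1 (0.73 ± 0.16, adjusted p 0.0024), Kctd11 (0.56, adjusted p 0.0026) and Kctd5 (0.24, adjusted p 0.0194) were higher. Kctd9 was at -0.27 and Kctd5 at 0.40 with library totals, and both passed. ENC1 and KEAP1 are Kelch adaptors without a Klhl or Kbtbd symbol. Keap1, the sensor of oxidants, was lower (110.8 ± 4.99 and 91.4 ± 7.23 CPM, -0.28 ± 0.06, edgeR adjusted p 0.0011). Its own value with library totals was not examined.

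Of 21 substrates or partners of single members 20 were tested, and 3 were higher and 9 lower (25.0% and 23.4% of all genes), with a median of -0.13. With library totals 7 were higher and 5 lower (5596 and 1560 of all 13937 genes). Tiam1, a Rac activator held by KBTBD6 and KBTBD7, fell most: 10.9 to 13.5 CPM in WT (median 11.9) and 2.37 to 5.37 CPM in mdx/mTR (median 3.23), without overlap. Its log2 fold change was -1.80 ± 0.15 (edgeR adjusted p 1.5e-06). Dapk1, a death-associated kinase held by KLHL20, rose from 6.43 to 10.3 CPM (median 7.80) to 12.6 to 19.7 CPM (median 15.3), also without overlap (0.99 ± 0.12, adjusted p 2.4e-05). Klhl20 itself did not pass, at 18.02 ± 0.893 and 19.2 ± 0.893 CPM. Tcof1 (-0.34, adjusted p 4.1e-04), Ppp2r5b (-0.31, adjusted p 4.4e-04) and Irs1, the insulin receptor substrate held by KLHL9 (-0.39, adjusted p 8.9e-04), were lower in edgeR, and Pdcd6 (0.30, adjusted p 5.0e-04) and Acly (0.28, adjusted p 0.0367) higher. With library totals Tcof1 (-0.18, adjusted p 0.0463), Ppp2r5b (-0.15, adjusted p 0.0322) and Irs1 (-0.23, adjusted p 0.0498) passed narrowly, while Pdcd6 was at 0.46 and Acly at 0.45. Acly, the citrate lyase held by KLHL25, did not pass without mdx/mTR replicate 2, 3 or 5 or WT replicate 1, 3, 4 or 5 (0.18 to 0.33 over all 12).

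**Figure D5:**
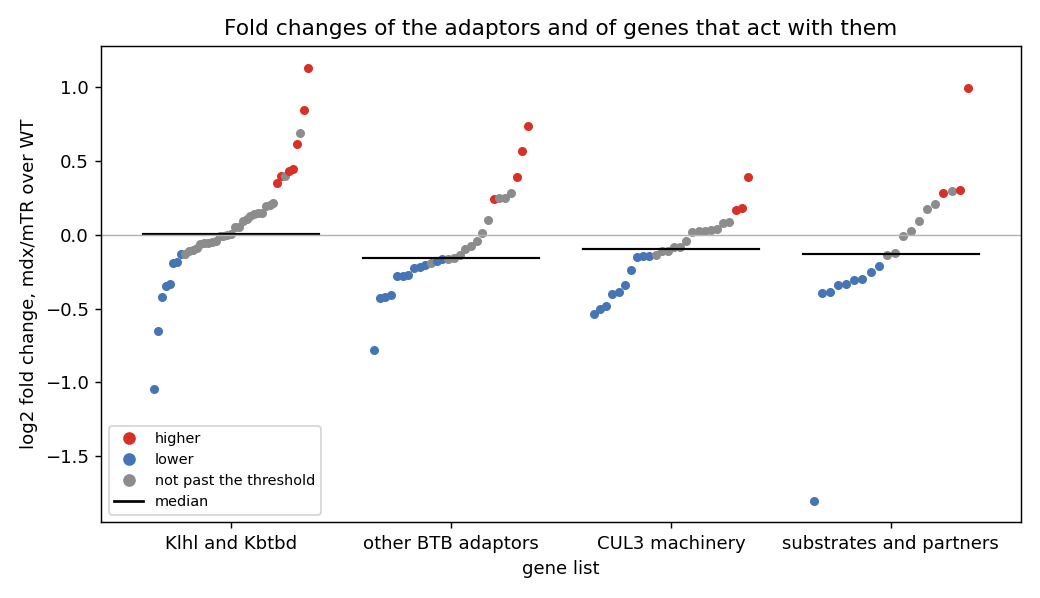
Change from WT to mdx/mTR on the log2 scale (y axis) for the tested genes of 4 lists (x axis), sorted within each list, in red and blue where they passed the threshold in edgeR, with black lines at the medians. The medians are 0.01 for the Klhl and Kbtbd genes, -0.16 for the other BTB adaptors, -0.10 for the CUL3 machinery and -0.13 for the substrates and partners, and with library totals they are 0.16, -0.01, 0.06 and 0.03.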

How the data were processed

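Total RNA of tibialis anterior went into 12 sequencing libraries, described as mRNA in the design text. The authors deposited raw counts per gene symbol; STAR, FastQC, DESeq2 and build mm10 are named in the submitters' processing notes, while the counter, annotation and strand handling are not given in the sources used here. The authors' deposited table of their comparison gives for each gene a mean signal after normalisation, a change on the log2 scale and its SE, the statistic as a score, and raw and adjusted p-values, per the file headers. All 12 count columns were matched to samples, and 0 were left unmatched.

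The deposited counts entered edgeR 4.0.16 (R 4.3.3) without change (filterByExpr, 13937 genes kept; TMM; glmQLFit and glmQLFTest with group alone; Benjamini-Hochberg over all genes, threshold 0.05). The SE is the log2 fold change over the square root of F. CPM uses TMM-scaled totals. Count ratios of 4 pairs of members were tested by exact permutation of the 12 libraries, two-sided with the smaller tail doubled and a pseudocount of 0.5. Alternatives used DESeq2 1.42.0, limma 3.58.1 (voom), other scalings and filters, a replicate block and each library left out. On simulated data for the 13937 genes, edgeR recovered 62.0% of 100 genes changed 1.5-fold and 89.0% of 100 changed 2-fold, with 11 false calls. In that simulation only 200 genes changed, as many up as down, while 48.3% of genes passed in the data. These rates therefore need not hold for the data.

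For shared sequence, the longest coding transcript of each member was split into all 50-base stretches, and those also present in other genes' transcripts on either strand were counted (GENCODE M21). Coordinates and upstream windows (RefSeq, GRCm38.p6, the assembly of mm10) were used with the same build. Every pair of libraries of a group differed by more than sampling noise (chi-square per degree of freedom 9.29 to 122).

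Described in full were the 9 muscle-associated members and the 8 other called members with the largest change and a mean of at least 1 CPM. From each other list the 3 smallest p-values in each direction were named, with the substrates of those members. Members, lists and the 4 pairs were chosen with earlier results of these data known. Cul3, Keap1, Irs1, Klhl9, Klhl20, Klhl24, Klhl6 and Kbtbd7 were named by role or level after their values were seen.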

Additional observations from a re-analysis of the deposited data

Results flagged for a closer look

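A library was taken as standing apart where its gap to the nearest other library of its 6, divided by the whole range, exceeded the 95% critical value of Dixon's test. Of 82 such groups over the 41 members, 9 exceeded it, where chance gives about 4.1. Members share libraries, so these are not independent.

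mdx/mTR replicate 2 accounted for 3: it was highest for Klhl30 (263.8 CPM, the next 193 CPM, ratio 0.779) and Klhl4 (4.28 CPM, the next 2.81 CPM, ratio 0.662), and lowest for Klhl8 (37.4 CPM, the next 43.1 CPM, ratio 0.655). WT replicate 2 accounted for a further 3 and was highest each time: Klhl42 (5.16 CPM, the next 4.40 CPM, ratio 0.741), Klhl5 (10.3 CPM, the next 9.07 CPM, ratio 0.682) and Klhl6 (3.15 CPM, the next 2.04 CPM, ratio 0.652). Without WT replicate 2, Klhl6 passed the threshold (log2 fold change 0.57, edgeR adjusted p 0.0368). Single values stood apart for Kbtbd7 in mdx/mTR replicate 1 (13.1 CPM, the next 11.8 CPM, ratio 0.656), Klhl28 in WT replicate 4 (10.7 CPM, the next 8.67 CPM, ratio 0.646) and Klhl22 in WT replicate 3, the lowest (34.5 CPM, the next 38.5 CPM, ratio 0.627). The cause of these values was not tested.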

How the results depend on the processing

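With library totals alone, 20 members were higher and 3 lower in place of 7 and 8, and 10 of the 15 members called with TMM were called again. With upper quartile scaling 10 were higher and 4 lower. Of all 13937 genes, 5596 were higher and 1560 lower with library totals, and 3955 and 2699 with upper quartile scaling. Signs turned with library totals for 12 of the 41 members and for Flnc. Among those described with values these were Klhl38 (0.0842), Klhl31 (0.0580), Kbtbd12 (0.0192), Kbtbd4 (0.0226), and Klhl24 (0.143), beside Flnc (0.0291). The other 7 were Klhl12 (0.111, adjusted p 0.0441 in edgeR), Kbtbd7, Klhl4, Klhl7, Klhl26, Klhl28 and Kbtbd3 (0.0454 to 0.143). The sign of Klhl24 also turned with upper quartile scaling (0.0314) and with a filter of 1 CPM in 6 libraries (0.00459). At an adjusted p of 0.01, 5 members were higher and 4 lower, where 4621 of all 13937 genes passed in place of 6736. At that threshold 8 genes of the CUL3 machinery and 9 of the other BTB adaptors passed, in place of 13 and 16. Leaving out 1 library at a time gave 6 to 9 members higher and 5 to 8 lower, and values from -0.176 to 0.0752 for Klhl38 and from -0.0548 to 0.0316 for Klhl24. At the threshold of 0.05, 9 of the 15 called members passed under every other setting; of the 26 others, 13 passed under at least 1 and 14 changed sign under at least 1. The 4 count ratios kept their direction and stayed past the threshold without any 1 library.

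The groups share replicate numbers. Deviations of same-numbered libraries correlated at -0.155 to 0.354, above 0.1 for 2 of the 6 numbers. Libraries of different numbers were not compared in this way, so these values cannot settle whether the numbers mark pairs. A replicate block left 6 members higher and 6 lower, and all 12 were among the 15. Of all 13937 genes it left 3308 higher and 3112 lower. At these depths a level below 0.0460 to 0.0837 CPM could not be told from 0.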
